A study of Mus musculus with 12 samples.

Results

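The growth genes Met, Braf, Igf1r and Akt1, together with the cyclin gene Ccnd2, were followed as copy number levels in 12 mouse tumours. All array probes that carried one of these 5 gene names were taken, and every probe within 500 kb of a gene was added to give its local level. The 5 genes are part of 20294 autosomal genes with probes on the array. The tumours were 4 renal cell carcinomas (RCC) and 8 malignant lymphomas (ML) of C57BL/6 mice that either lacked the DNA repair gene Mutyh (KO) or carried it (WT). The carcinomas came from mice given ferric nitrilotriacetate (Fe-NTA), a chelated form of iron that oxidises lipids and DNA in kidney tubules, and comprised 3 KO (KO1080, KO1097, KO1134) and 1 WT (WT1179). Of the lymphomas, 2 KO (KO1077, KO1111) and 3 WT (WT1113, WT1114, WT1121) came from treated mice, while 1 KO (KO1414) and 2 WT (WT1405, WT1420) came from untreated mice. Treated mice, which were male, were injected into the abdomen 5 times a week for 12 weeks, at 3 mg iron per kg of body weight in the first week and 5 mg in the other 11, and mice were killed at about 120 weeks. Each tumour's DNA was labelled with the red dye Cy5 and hybridised once against a shared reference, normal C57BL/6 kidney DNA labelled with the green dye Cy3. A tumour stands for 1 animal number, with no repeat array, and the labels do not describe how the knockout was made.

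Met encodes the receptor tyrosine kinase for hepatocyte growth factor, and Igf1r the receptor tyrosine kinase for the insulin-like growth factors. Braf encodes a serine/threonine kinase that passes signals from RAS proteins to the MAP kinases, and Akt1 a kinase that acts downstream of phosphoinositide 3-kinase. Ccnd2 encodes cyclin D2, which binds the cell cycle kinases CDK4 and CDK6 and is produced in response to growth signals, among other cells in lymphocytes. Met and Braf are well-known oncogenes, and inherited and acquired mutations of MET are known from human papillary renal carcinoma.

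The values in this text are log2 ratios of tumour over reference signal, set to 0 at the most frequent level of each array's autosomes. A level of 0 thus stands for the array's own baseline, which need not be 2 copies. Against a baseline of 2 copies in every cell, a loss to 1 copy in every cell would give -1, a gain to 3 copies 0.58 and a gain to 4 copies 1. Fewer cells with a change and a smaller change per cell cannot be told apart in bulk tumour DNA. Each chromosome was cut into segments of constant level. Where a gene's segment held 5 or more probes and its mean reached 0.25 in either direction, the gene was called gained or lost in that tumour, and a call that extended over at most 10 Mb was named focal.

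The genes differed in how many probes measured them. In build mm9, Met was covered by 12 probes at chr6:17420090-17515946, Braf by 12 at chr6:39554471-39668569 and Igf1r by 30 at chr7:75103700-75372577. Akt1 had 1 probe, at chr12:113904354-113904411, and Ccnd2 had 2, between chr6:127081910 and 127092993. The local windows held 97 probes for Met, 89 for Braf, 99 for Igf1r, 75 for Akt1 and 74 for Ccnd2, so the local level carries the measurement for Akt1 and Ccnd2. Met, Braf and Ccnd2 share chromosome 6, where Met lies 109.6 Mb and Braf 87.5 Mb from Ccnd2. The probes are shown as the array files give them, because each level below is read only at these places. The first and the last probe are given for Met, Braf and Igf1r, and every probe for Akt1 and Ccnd2.
Met, first probe (chr6:17420090-17420149): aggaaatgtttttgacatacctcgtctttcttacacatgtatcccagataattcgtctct
Met, last probe (chr6:17515887-17515946): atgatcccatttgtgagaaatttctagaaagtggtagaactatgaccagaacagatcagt
Braf, first probe (chr6:39554471-39554530): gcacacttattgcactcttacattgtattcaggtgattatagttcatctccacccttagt
Braf, last probe (chr6:39668510-39668569): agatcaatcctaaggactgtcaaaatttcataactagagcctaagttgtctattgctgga
Igf1r, first probe (chr7:75103700-75103759): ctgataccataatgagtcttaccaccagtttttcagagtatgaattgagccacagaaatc
Igf1r, last probe (chr7:75372518-75372577): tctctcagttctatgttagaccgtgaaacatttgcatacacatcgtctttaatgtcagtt
Akt1 (chr12:113904354-113904411): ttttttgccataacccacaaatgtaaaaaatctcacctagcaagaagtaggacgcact
Ccnd2, first probe (chr6:127081910-127081969): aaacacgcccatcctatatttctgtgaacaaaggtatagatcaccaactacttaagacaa
Ccnd2, second probe (chr6:127092934-127092993): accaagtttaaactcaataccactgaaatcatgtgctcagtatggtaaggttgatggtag
The letters are in the orientation of the array design, and no part is marked because the whole probe binds. The 57 probes of the 5 genes were 58 to 60 bases long with 33.3% to 41.4% G and C, and none of their 684 values was marked as dim or as an outlier by the scanner software.

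On the 12 arrays, the share of spots well above background lay between 99.856% and 99.938%, and the noise of single probes, as an SD, lay between 0.12 and 0.17. As a check of the labels, a probe in Mutyh at chr4:116490496-116490555 read between -3.22 and -2.40 in the 6 KO tumours and between -0.76 and 0.14 in the 6 WT tumours. Another Mutyh probe, at chr4:116480656-116480715, did not separate them, with -0.57 to 0.28 in KO and -0.83 to 0.20 in WT. DNA levels carry no expression markers, so the labelled tumour types were not checked that way. The 12 arrays sat on 3 slides of 4, and all 4 carcinomas shared slide 1, so that tumour type and slide cannot be told apart. Slide 2 held 4 treated lymphomas and slide 3 the 3 untreated ones with the treated WT1121, so that treatment and slide can hardly be told apart among the lymphomas. The profiles of lymphomas WT1113 and WT1114 correlated at r = 0.76 over 2397 autosomal bins of 1 Mb, whereas the other 27 pairs of lymphomas lay between -0.12 and 0.60. Without chromosomes 6, 7 and 15 the correlation of this pair was 0.82. Over chromosomes 6, 7 and 12 the pair also shared 6 steps of fewer than 5 probes that lay at least 1 from 0, of 11 in WT1113 and 6 in WT1114, while the other pairs shared 0 to 4. All 6 lay on chromosome 12, between chr12:68574073 and 100372624. The animal numbers differ, but whether the 2 tumours are independent samples is not settled by the labels. Fitted differences and group means that rest on both are also given without them. Counts of gains and losses and the permutation tests keep both.

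**Figure D1:**
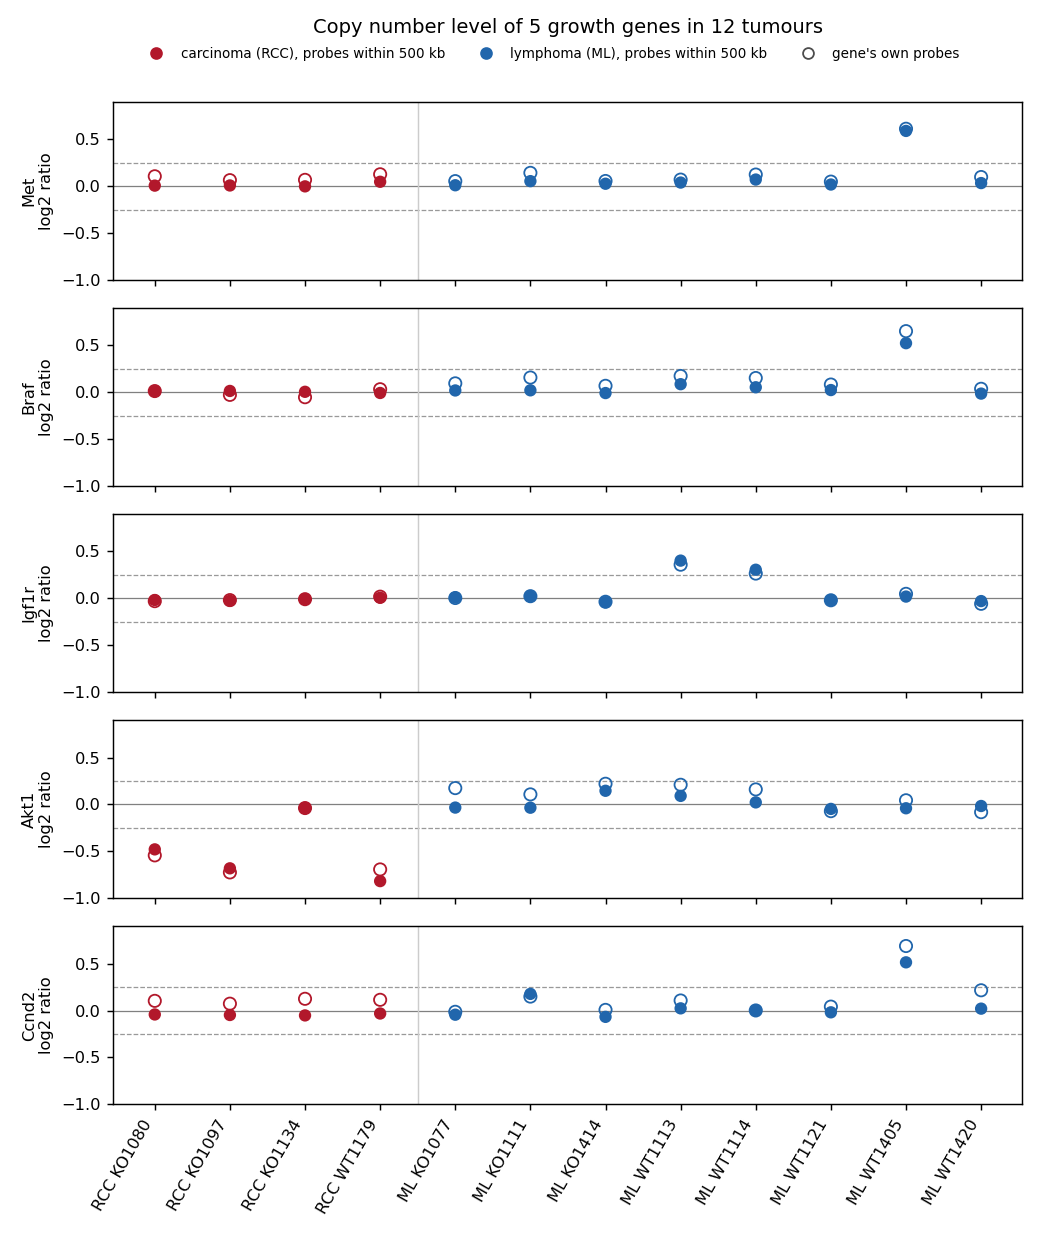
Log2 ratio of each gene (y axis, 1 panel per gene) in each of the 12 tumours (x axis). Filled points are the mean of all probes within 500 kb of the gene, open points the mean of the gene's own probes, red for carcinomas and blue for lymphomas, and dashed lines mark 0.25 and -0.25. WT1405 stands high for Met (local level 0.59), Braf (0.52) and Ccnd2 (0.51), WT1113 (0.40) and WT1114 (0.31) for Igf1r, and 3 of 4 carcinomas stand low for Akt1.

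Over the 60 pairs of gene and tumour, 8 were called, of which 5 were gains and 3 were losses. All 5 gains were in lymphomas and all 3 losses in carcinomas, and none of the 8 calls was focal. Met, Braf and Ccnd2 were gained in the same untreated WT lymphoma, WT1405, Igf1r in the treated WT lymphomas WT1113 and WT1114, and Akt1 was lost in the carcinomas KO1080, KO1097 and WT1179. In the other 6 tumours none of the 5 genes was called. These counts are to be read against the whole genome: 39.3% of all genes were gained in at least 1 lymphoma, 13.4% in at least 2, and 10.4% were lost in at least 3 carcinomas. In WT1405 alone, 32.3% of genes lay in gained segments. The shares for single tumours were 9.09% of genes gained in WT1113 and 7.86% in WT1114, and 10.4%, 17.4% and 15.2% of genes lost in KO1080, KO1097 and WT1179. The calls for the 5 genes thus fell in a background in which such calls were common. Among the tumours without a call for them, KO1134 had 31.9% of all genes lost. The share of genes gained was 3.85% in WT1121, 0.961% in KO1414, 0.532% in KO1111 and 0.0296% in both KO1077 and WT1420.

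Among the receptors, the local level of Met in the carcinomas was -0.0023 in KO1134, 0.0057 in KO1080, 0.0073 in KO1097 and 0.047 in WT1179. In the 8 lymphomas it ran from 0.0096 in KO1077 over a median of 0.036 to 0.59 in WT1405, and the second highest value was 0.070 in WT1114. WT1405 alone was high, and the other 7 lymphomas and the 4 carcinomas overlapped. The level in WT1405 had a standard error of 0.017 over the 97 probes of the window, which share 1 hybridisation and measure the precision of that array only. All 12 of the gene's own probes read between 0.33 and 0.82 in WT1405, with a mean of 0.61. In the other 11 tumours the mean of the own probes lay between 0.048 in WT1121 and 0.14 in KO1111.

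The local level of Igf1r was -0.026 in KO1097, -0.018 in KO1080, -0.0093 in KO1134 and 0.0065 in WT1179. Across the lymphomas its lowest value was -0.041 in KO1414, its median 0.014 and its highest 0.40 in WT1113, followed by 0.31 in WT1114. These 2 treated WT lymphomas were the only tumours above 0.25, and the next highest value was 0.019 in KO1111 and in WT1405. In WT1113 all 30 own probes were above 0, and in WT1114 96.7% of them were. The mean over all ML of 0.083 ± 0.17 (SD, n = 8) rested on that pair, and without it the other 6 lymphomas lay between -0.041 and 0.019.

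The gained segments that held Igf1r were long. In WT1113 the gain ran over chr7:58075000-133995167 with a mean of 0.43, and in WT1114 over chr7:58050012-133995167 with a mean of 0.32. Both ended at the same probe. Igf1r lay 17.0 Mb inside the left end and 58.6 Mb from the right end in WT1113. The level was uneven inside the gains: in WT1113 the segment with Igf1r, chr7:70336308-105216408, read 0.41, while the segments of the same gain lay between 0.34 and 0.53. In WT1114 the segment with Igf1r read 0.30 and the rest of the gain 0.35. Igf1r was therefore not at the highest level of either gain.

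**Figure D2:**
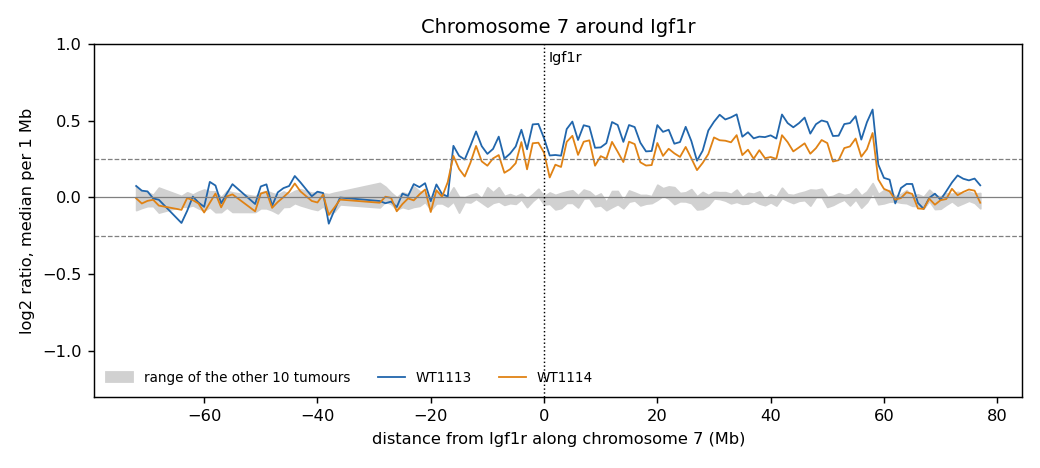
Median log2 ratio in bins of 1 Mb (y axis) against the distance from Igf1r in Mb along chromosome 7 (x axis), for lymphomas WT1113 and WT1114, with the range of the other 10 tumours in grey and dashed lines at 0.25 and -0.25. Both tumours rise before Igf1r (17.0 Mb in WT1113 and 17.1 Mb in WT1114) and fall 58.6 Mb after it, WT1113 (mean 0.43) above WT1114 (mean 0.32).

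A single probe of Igf1r in the untreated WT lymphoma WT1420, at chr7:75148612-75148671, read -2.41, whereas the median of the gene's 30 probes in that tumour was -0.016. The gene's probes before and after it read 0.14 and 0.56, and the same probe read between -0.013 and 0.54 in the other 11 tumours. With that probe the mean of Igf1r in WT1420 was -0.058 ± 0.086 (standard error over 30 probes), and without it 0.023 ± 0.029. Of the 684 own-probe values of the 5 genes, 5 lay at least 0.5 from the median of their gene in that tumour, and this was the only 1 that lay at least 1 from it. Also among the 5 were the values of the next probe, chr7:75156412-75156471, in WT1420 (0.56) and in KO1080 (-0.73). A change that covers 1 probe cannot be called under a minimum of 5 probes.

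Of the 2 kinases inside the cell, Braf followed Met. The local level of Braf was -0.0077 in WT1179, 0.0048 in KO1134, 0.0099 in KO1080 and 0.014 in KO1097. In the lymphomas the lowest was -0.014 in WT1420, the median 0.022 and the highest 0.52 in WT1405, and the second highest was 0.086 in WT1113. Only WT1405 was separated from the rest, and all 12 own probes read between 0.43 and 1.16 there.

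Akt1 was low in 3 carcinomas and was not called in the other tumours. Its local level was -0.82 in WT1179, -0.68 in KO1097, -0.48 in KO1080 and -0.038 in KO1134, with standard errors of 0.023 to 0.029 over probes. The single probe of the gene read -0.69, -0.72, -0.54 and -0.038 in the same order. In the lymphomas the local level ran from -0.047 in WT1121 over a median of -0.025 to 0.15 in KO1414, so that KO1134 lay inside the range of the lymphomas and the other 3 carcinomas below all of them.

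The losses that held Akt1 covered all of the probed chromosome 12, 118.15 Mb, in each of the 3 carcinomas. The run means were -0.41 in KO1080, -0.61 in KO1097 and -0.72 in WT1179, which are ratios of tumour to reference of 0.751, 0.654 and 0.607. In KO1097 the first 13.9 Mb of the chromosome were less reduced, at -0.30, than the 2 remaining segments, at -0.66 and -0.65. KO1134 also lost chromosome 12, but only from its first probe to chr12:88912636, at -0.30 over 5015 probes. The retained rest of the chromosome began at chr12:89268384, and its last segment, chr12:113436334-121252543, held Akt1 at a mean of -0.0032. A loss on chromosome 12 was thus present in 4 of 4 carcinomas, and a loss of Akt1 in 3 of 4.

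**Figure D3:**
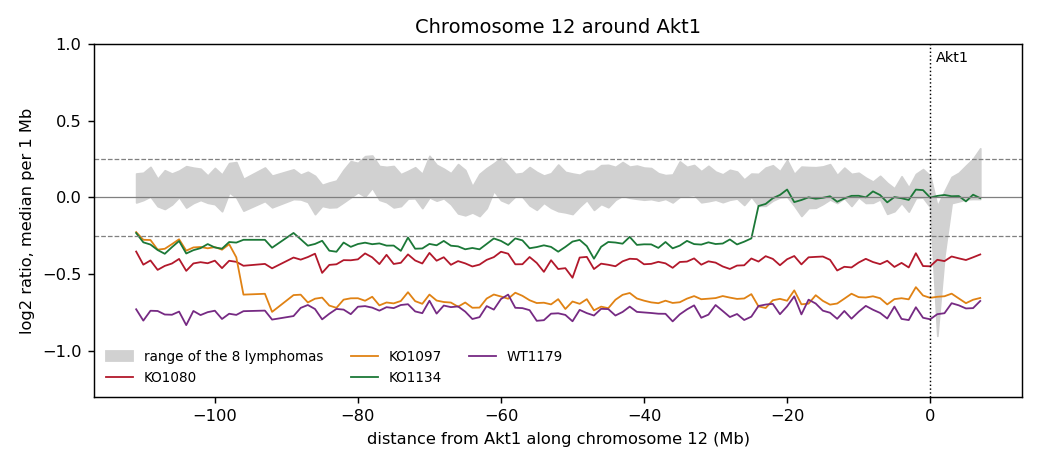
Median log2 ratio in bins of 1 Mb (y axis) against the distance from Akt1 in Mb along chromosome 12 (x axis), for the 4 carcinomas, with the range of the 8 lymphomas in grey and dashed lines at 0.25 and -0.25. KO1080, KO1097 and WT1179 are low along the whole chromosome, while KO1134 returns to the baseline before Akt1. The narrow dip of the lymphomas starts 0.602 Mb beyond Akt1.

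Short lost segments lay close to Akt1 and Braf in lymphomas without reaching them. In 7 of 8 lymphomas such a segment was found within 2 Mb of Akt1, starting at the earliest at chr12:114506215, 0.602 Mb beyond the gene, with means from -1.04 to -0.29. This is the region of the immunoglobulin heavy chain locus, which lymphocytes rearrange as they mature. In 4 lymphomas a segment with a mean from -0.40 to -0.30 started 1.34 Mb or farther beyond Braf, in the region of the T cell receptor beta locus. Both regions were outside the 500 kb windows, so that they do not enter the local levels given here.

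The local level of the cyclin gene Ccnd2 was -0.052 in KO1134, -0.047 in KO1097, -0.042 in KO1080 and -0.031 in WT1179. Its lowest value in a lymphoma was -0.067 in KO1414, the median was 0.012 and the highest 0.51 in WT1405, with 0.18 in KO1111 as the second highest. The carcinomas lay within the range of the lymphomas. The 2 own probes disagreed in WT1405, at 0.24 and 1.14, around a local level with a standard error of 0.019, and in KO1111, at -0.059 and 0.36. The mean of these 2 probes is for that reason a poor measure of the gene alone.

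In WT1405 the gain that held Ccnd2, Met and Braf covered chromosome 6 from its first to its last probe, 146.381 Mb, with a run mean of 0.54, a ratio of 1.45. It was cut only by single probes, among them chr6:125991029-125991088 at 2.55 and chr6:129001155-129001214 at 2.69, which lie 1.09 Mb before and 1.91 Mb after Ccnd2. Between those probes the segment with Ccnd2 read 0.51, and the other segments of the chromosome read from 0.52 to 0.54. Taken alone that segment was 2.99 Mb long and would have met the definition of a focal call, but its level did not stand out from its neighbours, and segments of the same sign were joined across such single probes before lengths were judged, a step chosen after seeing the data. Within WT1405 the local levels of Met (0.59 ± 0.017), Braf (0.52 ± 0.020) and Ccnd2 (0.51 ± 0.019) are given with standard errors over probes of 1 array. The single probe chr6:129001155-129001214 also formed a step, at 1.72, in WT1121, an array of the same slide without a call for Ccnd2.

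**Figure D4:**
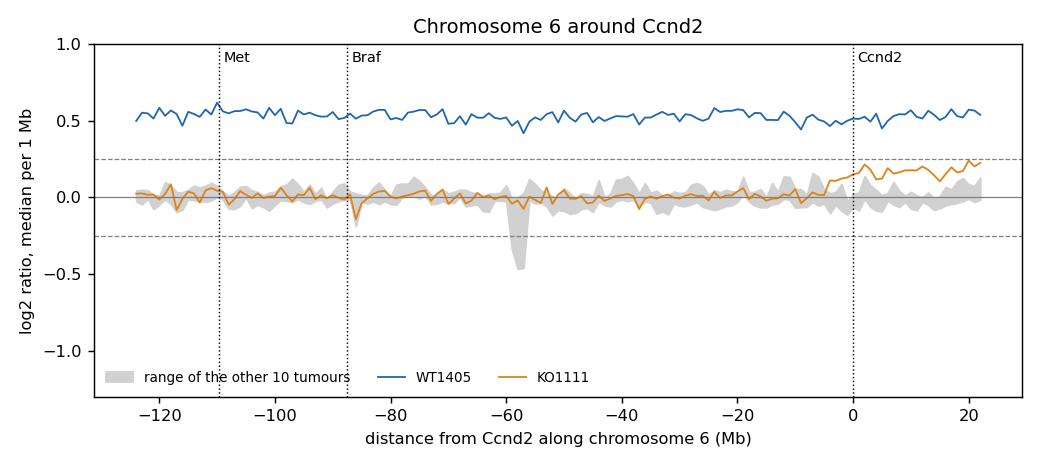
Median log2 ratio in bins of 1 Mb (y axis) against the distance from Ccnd2 in Mb along chromosome 6 (x axis), for lymphomas WT1405 and KO1111, with the range of the other 10 tumours in grey, dotted lines at the genes and dashed lines at 0.25 and -0.25. WT1405 is raised along the whole chromosome (run mean 0.54), whereas KO1111 is raised (segment mean 0.19) only at the end that holds Ccnd2.

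Gain of Ccnd2 co-occurred with gain of Met and of Braf in 1 tumour, which was also the only tumour with a gain of any of the 3. It co-occurred with gain of Igf1r in 0 tumours, and the 2 gains of Igf1r were in tumours without a Ccnd2 gain. Akt1 was gained in 0 tumours, so that co-occurrence with a gain of Akt1 was not possible. All 3 gains in WT1405 were read from 1 gain of the whole chromosome 6. The treated KO lymphoma KO1111 came nearest to a gain of Ccnd2 without Met and Braf. Its segment chr6:123062507-149512014 read 0.19 over 1900 probes and held Ccnd2, while the segment with Met and Braf read 0.043. That level was under the threshold of 0.25, and with a threshold of 0.15 Ccnd2 was called gained in KO1111 and in WT1405. With a threshold of 0.4 the Igf1r gain was called in WT1113 only.

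Whether the genes differed between carcinomas and lymphomas was tested for all genes in 1 limma model with genotype and treatment as further terms. The fitted value was the mean of a gene's own probes, which is 1 probe for Akt1 and 2 for Ccnd2. Akt1 was lower in carcinomas by a fitted difference of -0.67 ± 0.12 (standard error), with a Benjamini-Hochberg adjusted p of 0.0021 over 20281 genes. Over all genes, 12.2% were called lower and 0.922% higher in carcinomas, and the median difference of all genes was -0.078. For the 5 genes, 20 exact permutation tests of carcinomas against lymphomas were computed and are given unadjusted, of which 6 gave a p under 0.05 and the other 14 a p from 0.059 to 0.83. For Akt1 the exact permutation test on the local level, two-sided over all 495 splits of 4 and 8 tumours, gave a difference of -0.51 and p = 0.0061, and 3 of 4 carcinomas lay below all 8 lymphomas. Against the 5 lymphomas of treated mice alone the difference was -0.50, with p = 0.016 by the exact permutation test. The single probe of Akt1, the value fitted in limma above, gave -0.60 and p = 0.0061 by the exact permutation test. A limma fit of the local levels gave -0.55 for Akt1, with an adjusted p of 0.011. The local level of Braf was lower in carcinomas than in lymphomas of treated mice by a difference of -0.035, with p = 0.032 by the exact permutation test. Without WT1113 and WT1114 these lymphomas read 0.021 ± 0.0022 (SD, n = 3), nearer to the carcinomas at 0.0052 ± 0.0094 (SD, n = 4). The other 4 genes did not pass: the fitted differences were 0.032 for Met (adjusted p = 0.87), -0.11 for Braf (0.56), -0.099 for Igf1r (0.46, and -0.011 without WT1113 and WT1114) and 0.085 for Ccnd2 (0.66). Without genotype and treatment in the model the differences of Met and Ccnd2 turned to -0.060 and -0.046, so that no direction is given for them.

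Between genotypes, 0.0641% of all genes were called in either direction and none of the 5 was among them. The fitted differences of KO minus WT were 0.15 for Akt1, -0.091 for Braf, -0.11 for Ccnd2, -0.10 for Igf1r and -0.082 for Met, with adjusted p from 0.85 to 0.87. Without WT1113 and WT1114 that of Igf1r was -0.013. When 1 tumour was left out, the differences ran from -0.14 to -0.015 for Braf, -0.16 to 0.0056 for Ccnd2 and -0.12 to -0.0078 for Met. The gains of Met, Braf, Igf1r and Ccnd2 were all in WT tumours, yet in 3 of 6 WT tumours, and no difference passed the test. Loss of Akt1 occurred in 2 of 3 KO carcinomas and in the 1 WT carcinoma.

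Between treatments, 0 of 20281 genes passed in limma, while 1975 had an unadjusted p under 0.05. Without the treated lymphoma WT1121, 305 genes passed, none of the 5 among them. The fitted differences of Fe-NTA minus untreated were -0.24 ± 0.11 for Ccnd2 (adjusted p = 0.52), 0.15 ± 0.082 for Igf1r (0.59), -0.16 for Met (0.64), -0.11 for Braf (0.81) and 0.045 for Akt1 (0.96). The differences of Met and Braf rested on 1 library: without WT1405 they were 0.0097 and 0.077. That of Ccnd2 also depended on single tumours and ran from -0.40 to -0.058 with 1 tumour left out. Fitted in limma over all probes within 500 kb, it was -0.12 (adjusted p = 0.99). Among untreated lymphomas, the own probes of Ccnd2 read 0.69 in WT1405, 0.22 in WT1420 and 0.0072 in KO1414. That of Igf1r rested on WT1113 and WT1114: without both it was 0.022. By local level, Igf1r read 0.14 ± 0.20 (SD, n = 5) in treated lymphomas, or 0.0020 ± 0.022 (SD, n = 3) without WT1113 and WT1114, -0.017 ± 0.032 (SD, n = 3) in untreated lymphomas and -0.012 ± 0.014 (SD, n = 4) in carcinomas, and the 3 ranges overlapped. Ccnd2 read 0.16 ± 0.31 in untreated lymphomas, 0.028 ± 0.087 in treated lymphomas and -0.043 ± 0.0088 in carcinomas. For Met the order was the same, 0.22 ± 0.32, 0.038 ± 0.025 and 0.014 ± 0.022, as it was for Braf, 0.17 ± 0.31, 0.040 ± 0.029 and 0.0052 ± 0.0094. For Met, Braf and Ccnd2, neighbours in these orders differed by less than the SD of the untreated lymphomas, a group that holds WT1405. Akt1 read 0.030 ± 0.10 in untreated lymphomas, -0.00038 ± 0.058 in treated lymphomas and -0.50 ± 0.34 in carcinomas, where KO1134 overlapped the lymphomas.

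A gene's own probes were also set against the remaining probes of its window, which asks whether the gene stands out from its neighbourhood. For Met this difference was positive in every tumour, from 0.026 in WT1405 to 0.11 in KO1080. For Igf1r it lay between -0.062 and 0.042. For Braf it was -0.017 ± 0.051 (SD, n = 4) in carcinomas and 0.10 ± 0.035 (SD, n = 8) in lymphomas, and the carcinomas lay below all lymphomas. For Ccnd2 it was 0.15 ± 0.024 in carcinomas and 0.076 ± 0.081 in lymphomas, and for the single probe of Akt1 0.0042 ± 0.086 and 0.086 ± 0.091, with overlapping groups in both. By the exact permutation test over the 495 splits, the difference between tumour types was -0.12 for Braf, with p = 0.0020, the smallest these splits can give, and 0.035 for Met, with p = 0.044.

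**Figure D5:**
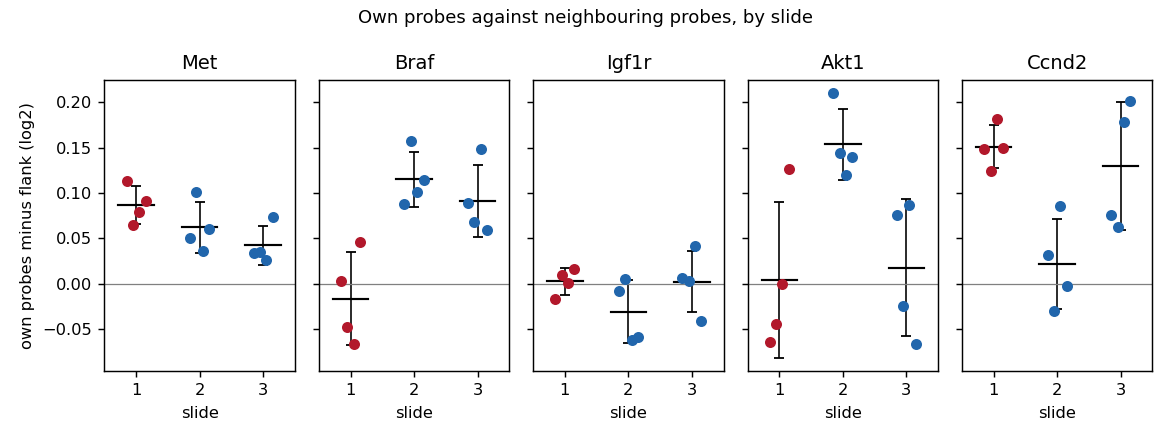
Mean of a gene's own probes minus the mean of the other probes within 500 kb (y axis, log2) for each tumour, by slide (x axis) and gene (panels), red for the 4 carcinomas of slide 1 and blue for the lymphomas of slides 2 and 3. Bars are the mean and SD of 4 arrays. Akt1 has only 1 own probe and Ccnd2 only 2. Braf is lower on slide 1 (-0.017) than on slides 2 (0.11) and 3 (0.091), while Ccnd2 is lower on slide 2 (0.022) than on slides 1 (0.15) and 3 (0.13).

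In the limma fit of this difference, Braf was called lower in carcinomas (-0.12 ± 0.032, adjusted p = 0.036) and Ccnd2 higher (0.14 ± 0.030, adjusted p = 0.015), where 5.62% of all 20280 genes were called lower and 9.27% higher. With the slide as a random block the differences stayed close, at -0.11 for Braf and 0.14 for Ccnd2, but neither passed (adjusted p = 0.28 and 0.17), and 139 genes instead of 3019 were then called. Over all alternatives other than left-out single tumours, the Braf difference lay between -0.16 and -0.085 and that of Ccnd2 between 0.076 and 0.16. Within lymphomas alone, Ccnd2 read 0.022 ± 0.050 on slide 2 and 0.13 ± 0.071 on slide 3, and by treatment 0.030 ± 0.047 in treated and 0.15 ± 0.067 in untreated lymphomas, where slide and treatment can hardly be told apart. The Braf call was also lost when any of 8 tumours was left out (KO1080, KO1097, KO1134, KO1077, KO1111, KO1414, WT1113 or WT1114), with adjusted p up to 0.12, and the Ccnd2 call when KO1111 was left out (0.053). Without WT1113 and WT1114 the adjusted p was 0.10 for Braf and 0.048 for Ccnd2. Leaving out WT1121 raised the count of called genes to 5525, and leaving out KO1077 lowered it to 1014. Met, Igf1r and Akt1 were not called, with adjusted p of 0.45, 0.60 and 0.17. The Ccnd2 call rests on 2 probes whose own levels went opposite ways between tumour types. The first had a mean of 0.18 in carcinomas and 0.020 in lymphomas, the second 0.027 and 0.28.

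The wider growth pathway was described from a list of 50 genes, of which 48 had probes. Hras and Cdk4 had none under these names. Between tumour types, 1 of the 48 was called higher in carcinomas and 0 lower, against 0.922% and 12.2% of all genes, and the median difference of the list was -0.064 against -0.078 for all genes. The called gene was Ptpn11, which encodes the phosphatase SHP2 that links receptors to RAS, at a fitted difference of 0.28 ± 0.085 (adjusted p = 0.046). Its own probes read 0.53 in WT1179, 0.073 in KO1134, 0.037 in KO1097 and 0.034 in KO1080, so that a single carcinoma was high. By segments, 20 of the 48 genes were lost and 4 gained in at least 1 carcinoma, and 23 were gained and 0 lost in at least 1 lymphoma. The corresponding shares of all genes were 42.9% lost and 5.94% gained in a carcinoma and 39.3% gained and 1.09% lost in a lymphoma.

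Most of these calls came from 2 tumours: WT1405 gained 20 of the 48 genes, where 32.3% of all genes were gained, and the carcinoma KO1134 lost 15, where 31.9% of all genes were lost. On chromosome 6, WT1405 also had raised levels of the listed ligand gene Tgfa (0.53) and the listed receptor gene Ret (0.46). On chromosome 7, Mapk3, which encodes the MAP kinase ERK1, was the only 1 of 6 listed genes inside the gains of WT1113 (0.48) and WT1114 (0.36). The listed genes Igf2, Fgfr2, Axl, Akt2 and Ccnd1 lay outside them. Akt2 and Ccnd1, relatives of Akt1 and Ccnd2, were called in none of the 12 tumours. Of all genes, 42.9% were lost in at least 1 carcinoma and 39.3% gained in at least 1 lymphoma. No listed gene lies on chromosome 12.

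In the remaining roles, the gene with the level farthest from 0 inside a called segment was in WT1179 or WT1405. Among receptors it was Pdgfra, a receptor for platelet-derived growth factor, at -0.84 in WT1179. In the PI3K-AKT group it was Pik3r1, which encodes a regulatory subunit of phosphoinositide 3-kinase, at -0.77 in the same carcinoma, and this gene was also lost in KO1097. Among inhibitors it was Nf1, which encodes a GTPase-activating protein for RAS, at 0.40 in WT1405. Among the D cyclins and their kinases it was Ccnd3, at 0.28 in WT1405. The cyclin D partner gene Cdk6 was gained in WT1405 too.

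The genes whose 12 levels lay closest to each of the 5 were found by the root mean square difference over tumours, among genes with at least 5 probes. More than 5 Mb away on the same chromosome, these were Fam13a for Met (0.027), Col28a1 for Braf (0.027), Agbl1 for Igf1r (0.023), AK053772 for Akt1 (0.061) and Met itself for Ccnd2 (0.063). On other chromosomes the closest genes were Fam20a on chromosome 11 for Met (0.064), the transcript ENSMUST00000107717 on chromosome 11 for Braf (0.057), Sned1 on chromosome 1 for Igf1r (0.063), Nrd1 on chromosome 4 for Akt1 (0.11) and Scarb2 on chromosome 5 for Ccnd2 (0.093). For each of the 5 genes the closest gene on its own chromosome differed less than the closest on any other.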

How the data were processed

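Each of the 12 tumours was measured on 1 Agilent 2-colour array. The authors deposited scanner files whose red and green intensity columns are, per the file headers, the processed signals of Feature Extraction 10.7.1.1, background-subtracted and dye-normalized, with probe positions in mm9. The deposited series table holds log2 ratios of these signals, matching them at r of at least 0.99994 with column medians of -0.020 to 0.025, and the deposited log10 ratio column of the scanner files served as an alternative. The log2 of red over green was averaged per probe (170305 probes, control and outlier spots left out) and centred on the mode (kernel bandwidth 0.02) of a running median of 51 autosomal probes. Segments came from penalised least squares, with a penalty of 10 × log(probes on the chromosome) × noise variance. Gene values, each the mean of a gene's own probes, were fitted in limma 3.58.1 (R 4.3.3) with tumour type, genotype and treatment. Benjamini-Hochberg adjustment ran over all 20281 genes, at a threshold of 0.05. Single values were compared with exact permutation tests, two-sided. The number of arrays limits the precision.

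Tested on simulated data with 20281 genes, the tumour type term recovered 47.0% of 200 genes shifted by 0.4 and 89.5% of those shifted by 0.6. Inserted changes of 10 probes at 0.7 were found in 86.7% of cases and of 30 probes at 0.5 in 100%. The simulated noise was drawn independently for each gene or probe, whereas genes of 1 segment move together in the tumours. Recovery in the tumours may therefore differ. Alternatives were other centrings, normexp background correction, the series table, dim or outlier spots, other thresholds, blocks and left-out tumours. The 5 genes, the pathway list and the rules were chosen with earlier results of these data known. Named pathway genes were those called between tumour types, those on chromosomes 6, 7 and 12, and in each role the gene with the largest value inside a called segment. Some items that this rule would name are not reported here. Positions within exons or introns were not used here.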

Additional observations from a re-analysis of the deposited data

Results flagged for a closer look

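The lymphoma WT1405 stood apart from the other 7 lymphomas for all 3 genes on chromosome 6. Its gap to the next lymphoma, as a share of the range of the 8, was 0.83 for the own probes of Met and 0.90 for its local level. The same share was 0.78 and 0.81 for Braf, and 0.67 and 0.58 for Ccnd2. Each is above Dixon's critical value for 8 values. In all, 30 groups were tested in this way and 6 stood out, where chance gives about 1 in 20. The 6 are not independent, since the 3 genes lie on 1 gained chromosome of 1 tumour. Their count can therefore not be set against that share.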

How the results depend on the processing

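The 8 calls of the 5 genes were the same under all other ways of calling that were run except thresholds of 0.15 (Ccnd2 gained in 2 lymphomas) and 0.4 (Igf1r gained in 1). The difference of Akt1 between tumour types held its direction and adjusted p under 0.05 in every alternative fit, from -0.80 to -0.51. All carcinomas lay on slide 1 and all untreated tumours were lymphomas on slide 3, which limits every comparison of groups.

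Genes called by treatment numbered 2 in the 8 lymphomas alone, 1 with the slide as a block, and 0 to 305 (without WT1121) when 1 tumour was left out. Genes whose own probes differed from their flank numbered 1508 with normexp, 1206 without further terms, 139 with the slide as a block, 1102 without WT1113 and WT1114 (chosen after seeing the data) and 1014 to 5525 when 1 tumour was left out. With the replicate number of the titles as a block they numbered 221, and genes called by tumour type 1923. These numbers name the tumours in order and pair no animals, and with this replicate block Braf (adjusted p = 0.13) and Ccnd2 (0.13) did not differ from their flank between types.

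Directions turned as follows, and none of the values passed the test. Between tumour types, Ccnd2 read -0.050 over 500 kb and -0.046 without further terms or by permutation, and Met -0.060 under the last 2. Between treatments, Akt1 read -0.039 over 500 kb, -0.16 with normexp, -0.22 without further terms and -0.070 without WT1113 and WT1114. With 1 tumour left out, treatment differences ran from -0.0031 (without WT1420) to 0.085 for Akt1, from -0.24 to 0.077 (without WT1405) for Braf and from -0.26 to 0.0097 (without WT1405) for Met. Between genotypes, Ccnd2 read 0.0056 in treated tumours and from -0.16 to 0.0056 (without KO1414) with 1 tumour left out, and Akt1 -0.062 without further terms. Own probes minus flank gave 0.14 for Akt1 and -0.0047 for Met with normexp, while Akt1 passed with a flank of 1 Mb (-0.25, adjusted p = 0.015) and without WT1179 (-0.21, adjusted p = 0.037). The flank of 1 Mb takes in probes of the lost segments found in 7 lymphomas from 0.602 Mb beyond Akt1, which the 500 kb window leaves out. The cause was not tested.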
